A study of Mus musculus with 15 samples.

Results

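The genes described here are 10 genes of oxidative stress and glutathione defence: Nfe2l2, Hmox1, Nqo1, Gclc, Gclm, Gsr, Sod2, Cat, Txnrd1 and Slc7a11. They were chosen by name, and their probes were found by the transcript identifier that the array files give for each probe. All 10 had a probe, 13 probes in all, because Hmox1, Gsr and Cat each had 2. Of the 10, 9 passed the filter on dim probes and were tested among 28025 genes and unnamed transcripts, of which 16096 had a symbol.

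RNA was measured in mammary tumours, all from female mice of MMTV-PyMT, a strain that carries the polyoma middle T oncogene under a mouse mammary tumour virus promoter and develops mammary carcinomas. The 4 groups were tumours taken before any treatment (T0, n = 4), tumours of mice given vehicle (n = 3), tumours of mice given B20 (n = 4), and tumours of mice given nintedanib (n = 4). All but T0 are called treated tumours below, although vehicle holds no drug. B20 is an antibody against VEGF-A and was injected into the peritoneum at 5 mg/kg, 2 times per week. Nintedanib is a small inhibitor of the VEGF, FGF and PDGF receptor kinases and was given by gavage at 85 mg/kg per day. Treatment began at 7 weeks of age, and all 15 tumours carried the same oncogene. No label ties the samples to separate mice, so a p-value here reflects only how far the arrays of a group scatter, for biological or technical reasons. T0 replicate 4 carries both the vehicle label and the label for no treatment, and its title puts it in T0.

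Cells meet oxidants with a shared gene programme. The transcription factor NRF2, the product of Nfe2l2, is held at low levels by KEAP1 until oxidants or electrophiles modify KEAP1, after which NRF2 enters the nucleus and binds antioxidant response elements with small MAF proteins. Its targets make glutathione from imported cystine, keep glutathione and thioredoxin reduced with NADPH, and break down quinones and haem. In tumours this programme is known for protecting cancer cells from oxidants, and in part for resistance to therapy.

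The promoters of the members are shown first because NRF2 acts through the antioxidant response element. A RefSeq table of promoters on GRCm38.p6 held 9 promoters of 7 members, Nfe2l2, Cat, Slc7a11, Gclm, Nqo1, Txnrd1 and Sod2. The 250 bases before each start were searched on both strands for the core of the element, TGACNNNGC. The core was present in 3338 of 32851 promoters in the table (10.2%) and in promoters of 3 members, Nfe2l2, Gclm and Txnrd1. The 3 stretches follow, with the core in capitals, each read on the strand of its gene.
Nfe2l2, chr2:75704880-75704913, minus strand: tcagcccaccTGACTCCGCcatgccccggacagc
Gclm, chr3:122245408-122245446, plus strand: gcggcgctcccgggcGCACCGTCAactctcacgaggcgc
Txnrd1, chr10:82859099-82859137, plus strand: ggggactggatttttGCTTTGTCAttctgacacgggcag
In Nfe2l2 the core is read along the gene, and in Gclm and Txnrd1 it lies on the opposite strand. It lies 231 bases before the start of Nfe2l2, 125 bases before that of Gclm, and 83 bases before 1 of the 3 starts of Txnrd1. These are matches of letters and were not tested as binding sites, and the longer enhancers that carry such elements in several of these genes lie outside the window.

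Levels below are log2 processed signal minus the 75th percentile of the same array, so a level of 0 is that of the array's 75th percentile. Differences are on the same log2 scale with their standard error, and a gene was called at a Benjamini-Hochberg adjusted p under 0.05 in limma's moderated test over all 28025 genes. Probes differ in brightness for the same amount of RNA, so levels are compared between groups for 1 probe and never between genes. Of the 15 arrays, 14 had between 53.4% and 68.1% of probes well above background and T0 replicate 3 had 84.1%. The 8 arrays of vehicle 1 and 2, B20 1 to 3 and nintedanib 1 to 3 shared a slide, and vehicle 3, B20 4 and nintedanib 4 shared another. The T0 arrays lay on 2 further slides, and their file headers name another protocol version (GE1_1100_Jul11) than the others (GE1_1100_Jul11_B). T0 tumours were also taken before treatment and the others after it began. Slide, time and group therefore cannot be told apart in any comparison with T0. Luminal epithelial markers were measured on every array, and the mean level of the 9 lay between 4.20 and 4.70. Single markers differed in both directions: in nintedanib against T0, Elf5 was called lower (-0.76, limma adjusted p 0.0124), and Krt8 differed by 0.73 (0.0723), which was not called.

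After treatment, none of the 9 members was called between drug and vehicle or between the drugs. The question there is whether VEGF antibody or kinase inhibitor changed the RNA of the antioxidant programme in the tumour. With nintedanib against vehicle, 0 of 9 members were called in limma, and 0 had an unadjusted p under 0.05. Of all genes tested, 0% were called, and 1353 had an unadjusted p under 0.05. With B20 against vehicle, 0 of 9 were called and 1 had an unadjusted p under 0.05, where again 0% of all genes were called and 911 had such a p. With nintedanib against B20, 0 of 9 were called and 2 had such a p, where 0% of all genes were called and 2630 had such a p. The median difference of the members was -0.04 for nintedanib against vehicle, 0.13 for B20 against vehicle and -0.22 for nintedanib against B20, beside -0.01, 0.04 and -0.04 over all genes.

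**Figure D1:**
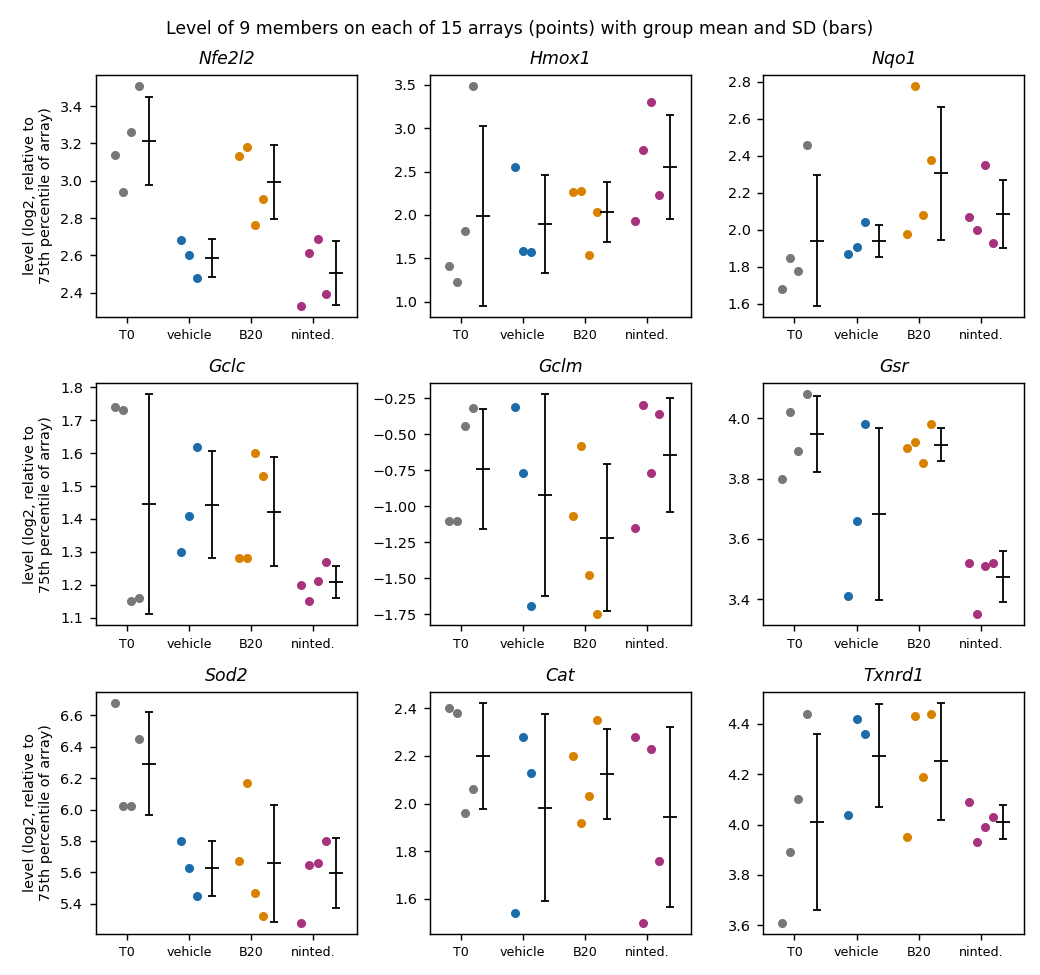
Level of the 9 tested members (log2, relative to the 75th percentile of the array) on each of the 15 arrays, 1 point per array, in T0, vehicle, B20 and nintedanib tumours. Horizontal and vertical bars give the group mean and SD. All 4 nintedanib arrays of Gsr (3.35 to 3.52) lie below the B20 and T0 arrays, and Hmox1 spreads most in T0 (SD 1.03) and least in B20 (0.35).

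Nfe2l2, which encodes NRF2, stood at 3.14, 2.94, 3.26 and 3.51 on the T0 arrays and at 2.68, 2.60 and 2.48 on the vehicle arrays. It stood at 3.13, 3.18, 2.76 and 2.90 on the B20 arrays and at 2.33, 2.61, 2.69 and 2.39 on the nintedanib arrays. All T0 arrays lay above all vehicle and nintedanib arrays, and all B20 arrays lay above all vehicle and nintedanib arrays. The group means fell in the order T0 (3.21 ± 0.24, SD), B20 (2.99 ± 0.20), vehicle (2.59 ± 0.10) and nintedanib (2.51 ± 0.17). T0 and B20 overlapped, as did vehicle and nintedanib. B20 exceeded vehicle by 0.41 ± 0.17 (95% interval 0.04 to 0.78), but with an adjusted p of 0.998 in limma the difference was not called. Nintedanib lay 0.49 ± 0.16 below B20 (95% interval of the difference -0.83 to -0.15) with an adjusted p of 0.517 in limma, also not called. By slide, the Nfe2l2 difference between nintedanib and B20 was -0.48 on the slide of 8 arrays and -0.52 on the slide of 3, where each group had 1 array. Between B20 and vehicle the Nfe2l2 difference was 0.38 on the first of these slides and 0.43 on the second. As neither pair of groups overlapped, these signs were fixed in advance, and the split adds no support to the differences.

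Gsr encodes glutathione reductase, which uses NADPH to return oxidised glutathione to its reduced form. Its brighter probe read 3.8, 4.02, 3.89 and 4.08 in T0 and 3.41, 3.66 and 3.98 in vehicle. In B20 it read 3.90, 3.92, 3.85 and 3.98, and in nintedanib 3.52, 3.35, 3.51 and 3.52. The 4 nintedanib arrays lay below every B20 and every T0 array, while the 3 vehicle arrays spanned both ranges. Nintedanib lay 0.44 ± 0.14 below B20 in Gsr (95% interval of the difference -0.74 to -0.13, limma adjusted p 0.517), which was not called. By slide the difference was -0.43 on the slide of 8 arrays and -0.46 on the slide of 3, with a sign fixed by the lack of overlap. Against vehicle, Gsr differed by -0.21 ± 0.15 in nintedanib and by 0.22 ± 0.15 in B20. They differed between the slides: on the slide of 3, vehicle replicate 3 stood 0.46 above nintedanib and within 0.01 of B20, and on the slide of 8 the nintedanib difference from vehicle was -0.08. The dimmer Gsr probe gave 1.77 ± 0.16 in nintedanib and 2.06 ± 0.15 in B20 (SD, n = 4 each), and on that probe nintedanib replicate 3, at 1.9, lay above B20 replicate 3, at 1.86.

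Gclc and Gclm encode the catalytic and the modifier subunit of glutamate-cysteine ligase, which makes the rate-limiting step of glutathione synthesis. Gclc stood at 1.30, 1.41 and 1.62 in vehicle, at 1.28, 1.28, 1.60 and 1.53 in B20, and at 1.20, 1.15, 1.21 and 1.27 in nintedanib. All nintedanib arrays of Gclc therefore lay below all vehicle and B20 arrays, by a narrow margin. The difference from vehicle was -0.24 ± 0.18 (95% interval -0.63 to 0.15) and that from B20 was -0.22 ± 0.17 (95% interval -0.58 to 0.15). Gclm spread more widely: it read -0.31, -0.77 and -1.69 in vehicle, -1.07, -0.58, -1.48 and -1.75 in B20, and -1.15, -0.30, -0.77 and -0.36 in nintedanib. The 3 groups overlapped, and the Gclm difference between nintedanib and B20, 0.57 ± 0.34, had a 95% interval from -0.15 to 1.30. In T0, Gclc stood at 1.74 and 1.73 on replicates 1 and 2, which shared a slide. It stood at 1.15 and 1.16 on replicates 3 and 4, which shared another. Gclm in T0 read -1.10 and -1.10 on the first of these slides and -0.44 and -0.32 on the second, so the subunits differed in opposite directions between the T0 slides. Adipocyte and muscle markers differed between the same arrays, as given below, so slide and tissue content cannot be told apart there.

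Slc7a11 encodes the light chain of the cystine-glutamate exchanger that supplies cysteine for glutathione. Its only probe was well above background on 0 of the 15 arrays, so it was not tested. Its log2 signal lay between 1.04 and 2.11, under the lowest signal counted as well above background on the same array, which lay between 2.84 and 4.0. No order between groups can be read from such values.

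Sod2 encodes the manganese superoxide dismutase of mitochondria. It read 5.80, 5.63 and 5.45 in vehicle, 5.67, 6.17, 5.47 and 5.32 in B20, and 5.28, 5.65, 5.66 and 5.80 in nintedanib. These 3 groups overlapped and their means lay within 0.06 of one another: nintedanib differed from vehicle by -0.03 ± 0.23, B20 from vehicle by 0.03 ± 0.23, and nintedanib from B20 by -0.06 ± 0.21. The 95% intervals of the Sod2 differences from vehicle ran from -0.53 to 0.47 for nintedanib and from -0.47 to 0.53 for B20.

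Cat encodes catalase, the peroxisomal enzyme that breaks down hydrogen peroxide, and its 2 probes disagreed. The brighter probe read 1.54, 2.28 and 2.13 in vehicle, 2.20, 1.92, 2.03 and 2.35 in B20, and 2.28, 1.5, 2.23 and 1.76 in nintedanib. The dimmer probe read 0.06, -0.13 and -0.69 in vehicle, -0.43, -0.34, -0.57 and -0.93 in B20, and -0.30, 0.15, -0.34 and 0.05 in nintedanib. Over the 15 arrays Pearson's r between the Cat probes was -0.08 (Spearman -0.07), given as a description, whereas the 2 probes of Hmox1 gave 0.77 (Spearman 0.89) and those of Gsr 0.68 (Spearman 0.62). The level of catalase RNA therefore depends on the probe, and neither probe was called between the 3 groups of treated tumours.

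**Figure D2:**
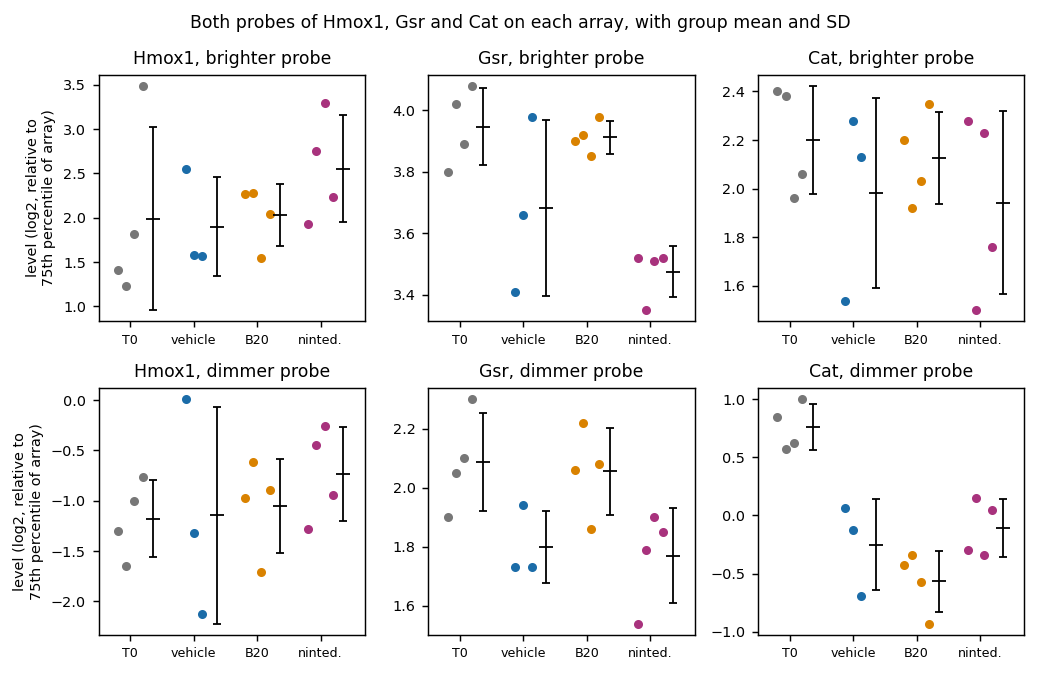
Level (log2, relative to the 75th percentile of the array) of the brighter and the dimmer probe of Hmox1, Gsr and Cat on each array, 1 point per array, with group mean and SD as bars. The dimmer Cat probe is higher on all 4 T0 arrays (0.57 to 1.00) than on the 11 others, and the brighter Cat probe is not.

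Txnrd1 encodes the cytosolic thioredoxin reductase, Nqo1 a quinone reductase that is a standard readout of NRF2, and Hmox1 the inducible haem oxygenase. Txnrd1 read 4.04, 4.42 and 4.36 in vehicle, 3.95, 4.43, 4.19 and 4.44 in B20, and 4.09, 3.93, 3.99 and 4.03 in nintedanib. The nintedanib arrays were the tightest of the 3 groups (4.01 ± 0.07, SD) and lay 0.27 ± 0.20 below vehicle (95% interval of the difference -0.69 to 0.16), with overlap. Nqo1 read 1.87, 1.91 and 2.04 in vehicle, 1.98, 2.78, 2.08 and 2.38 in B20, and 2.07, 2.0, 2.35 and 1.93 in nintedanib. Its difference from vehicle was 0.37 ± 0.22 in B20 (95% interval -0.11 to 0.85) and 0.15 ± 0.22 in nintedanib (95% interval -0.33 to 0.63). B20 replicate 1 of Nqo1 lay below vehicle replicate 3, so the groups overlapped.

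Hmox1 was the most variable member. Its brighter probe read 2.55, 1.58 and 1.57 in vehicle, 2.27, 2.28, 1.54 and 2.04 in B20, and 1.93, 2.75, 3.30 and 2.23 in nintedanib. In T0 that probe read 1.41, 1.23 and 1.82 on 3 arrays and 3.49 on T0 replicate 4, its highest value of all 15. On the dimmer Hmox1 probe T0 replicate 4 was the highest of T0, at -0.76, but not of all arrays. There it lay below vehicle replicate 1 (0.01), B20 replicate 2 (-0.62) and nintedanib replicates 2 (-0.45) and 3 (-0.26). Nintedanib lay 0.65 ± 0.49 above vehicle in Hmox1 (95% interval -0.41 to 1.71; limma adjusted p 0.999), which was the largest difference of any member between a drug and vehicle, and the groups overlapped. Haem oxygenase is strongly expressed by macrophages, and macrophage markers varied on the same arrays. The mean level of the 8 macrophage markers that were measured of 10 was 1.99 on T0 replicate 4 against 0.88 to 1.17 on the other T0 arrays. It was 0.97 to 1.23 in vehicle, 0.89 to 1.38 in B20 and 0.99 to 1.70 in nintedanib. Array by array, Hmox1 and these markers matched only in part. Vehicle replicate 1 had the highest Hmox1 of its group (2.55) and the lowest marker mean (0.97). In nintedanib the lowest of both was on replicate 1, but the highest marker mean (1.70) was on replicate 4, where Hmox1 was 2.23. In B20 the highest of both was on replicate 2. Cd68 had no matched probe and Cd163 did not pass the filter, and the part of macrophages in the Hmox1 values was not tested. In bulk tumour RNA, fewer cells of a type and less RNA per cell cannot be told apart.

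Non-overlap of groups was counted as well, without a model. For nintedanib against vehicle 1 of 9 members (Gclc) did not overlap, where 7.36% of all genes did not. For B20 against vehicle 1 of 9 (Nfe2l2) did not overlap, where 5.4% of all genes did not. For nintedanib against B20, 3 of 9 members (Nfe2l2, Gclc and Gsr) were lower on every nintedanib array, where 5.73% of all genes did not overlap in either direction.

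**Figure D3:**
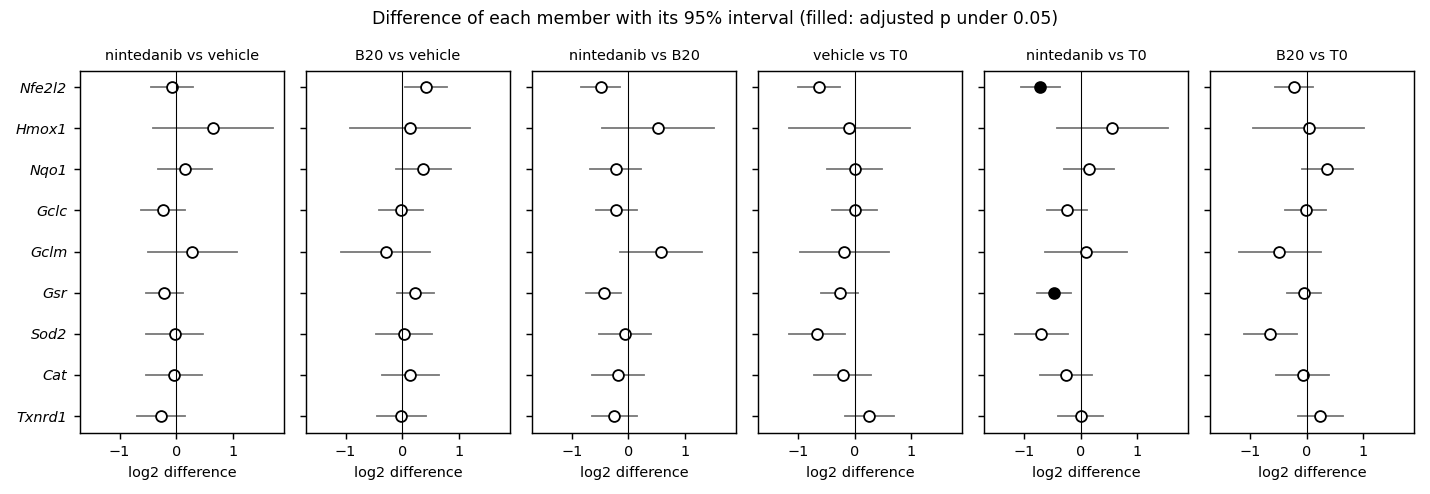
Difference of each tested member (log2, first group minus second) with its 95% interval from limma in the 6 comparisons, 1 circle per member, filled where the adjusted p was under 0.05. Only Nfe2l2 and Gsr in nintedanib against T0 are filled, at -0.71 and -0.47.

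Against the tumours taken before treatment, Nfe2l2 and Gsr were lower in nintedanib tumours. The T0 tumours were taken earlier and lay on other slides, so time, slide and drug cannot be told apart here. In nintedanib against T0, 2 of 9 members were called, both lower, where 11.4% of all genes were called and 4.62% were called lower. The Nfe2l2 level was 2.51 ± 0.17 in nintedanib and 3.21 ± 0.24 in T0 (SD, n = 4 each), a difference of -0.71 ± 0.16 or 1.63-fold, with an adjusted p of 0.0146 in limma. The Gsr level was 3.48 ± 0.08 in nintedanib and 3.95 ± 0.13 in T0, a difference of -0.47 ± 0.14 or 1.39-fold, with an adjusted p of 0.0448 in limma. For Nfe2l2, Gsr and Sod2 the nintedanib and T0 arrays did not overlap, 3 of 9 members, where 16.8% of all genes did not. The Nfe2l2 call held without T0 replicate 3 (-0.69, limma adjusted p 0.0246) and without T0 replicate 4 (-0.61, 0.0256). It was lost with median scaling (-0.73, limma adjusted p 0.186) and in a fit of only the 2 groups (-0.71, 0.06), 2 of 28 alternatives. The Gsr call was lost without T0 replicate 3 (-0.49, limma adjusted p 0.0548), without T0 replicate 4 (-0.43, 0.0762), on the dimmer Gsr probe (-0.32, 0.156) and with slide as a random block (-0.45, 0.0873). It was also lost without any 1 of the other T0 or nintedanib arrays.

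In vehicle tumours against T0, 0 of 9 members were called in limma, where 4.93% of all genes were called. An unadjusted limma p under 0.05 was found for 2 of the 9 members and for 5968 of all 28025 genes. Nfe2l2 was lower by a similar amount as with nintedanib, -0.63 ± 0.17, with an adjusted p of 0.0525 in limma that just missed the threshold. It was called in 4 of 28 alternatives, over which the limma adjusted p ran from 0.00672 to 0.441. The vehicle and T0 arrays did not overlap for Nfe2l2 and Sod2, 2 of 9 members, where 16.7% of all genes did not. In B20 tumours against T0, 0 of 9 were called, where 9.52% of all genes were called. Such an unadjusted p was found for 1 of the 9 members and for 7315 of all genes. There the Nfe2l2 difference was -0.22 ± 0.16 (95% interval -0.56 to 0.12) and no member kept its groups apart, 0 of 9, where 15.5% of all genes did. These 3 comparisons share the T0 arrays, so their values are not independent of one another.

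Sod2 was lower in vehicle, B20 and nintedanib tumours than in T0 by nearly equal amounts, none of which was called. On the T0 arrays it read 6.68, 6.02, 6.02 and 6.45. The Sod2 difference from T0 was -0.67 ± 0.23 in vehicle, -0.69 ± 0.21 in nintedanib and -0.64 ± 0.21 in B20, with limma adjusted p of 0.113, 0.0524 and 0.0781. Only B20 replicate 2, at 6.17, reached into the T0 range. The Sod2 difference was called in 0 of 28 alternatives for vehicle, 4 of 28 for nintedanib and 5 of 28 for B20. Those for nintedanib include the fit without T0 replicate 3 (-0.79, limma adjusted p 0.0405), and those for B20 the fit without B20 replicate 2 (-0.81, 0.0457), the array nearest to T0.

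The Cat result against T0 depends on the probe. The brighter probe read 2.40, 2.38, 1.96 and 2.06 in T0 and differed from T0 by -0.21 ± 0.23 in vehicle, -0.25 ± 0.22 in nintedanib and -0.07 ± 0.22 in B20, with no call. The dimmer Cat probe read 0.85, 0.57, 0.62 and 1.00 in T0, above all 11 vehicle, B20 and nintedanib arrays. Its differences from T0 were -1.01 in vehicle, -0.87 in nintedanib and -1.33 in B20, with limma adjusted p of 0.0216, 0.0167 and 0.00521. The dimmer probe was examined after the disagreement had been seen.

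Of the other members, none was called against T0. The Gclc difference from T0 was 0.00 in vehicle, -0.24 in nintedanib and -0.02 in B20, and that of Gclm was -0.19, 0.10 and -0.48. Txnrd1 read 3.61, 3.89, 4.10 and 4.44 in T0 and differed from it by 0.26 in vehicle, 0.00 in nintedanib and 0.24 in B20. Nqo1 read 1.68, 1.85, 1.78 and 2.46 in T0, and Hmox1 differed from T0 by 0.56 ± 0.46 in nintedanib. For Nqo1 and Hmox1 the high T0 array was replicate 4 in each case. Without it the Hmox1 difference between nintedanib and T0 was 1.06 (limma adjusted p 0.0605), and the Nqo1 difference between B20 and T0 was 0.54 (0.0833), neither called. The median difference of the members from T0 was -0.19 in vehicle, -0.24 in nintedanib and -0.04 in B20, beside 0.04, 0.01 and 0.08 over all genes.

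Marker RNA of other cell types also differed between T0 and the treated tumours. The mean level of 8 adipocyte markers was 3.26 to 5.43 in T0, -2.16 to 0.13 in vehicle, 0.02 to 2.16 in B20 and -0.25 to 2.93 in nintedanib, and 8 of 8 were called lower in vehicle than in T0. In nintedanib and in B20, 7 of 8 adipocyte markers were called lower than in T0. The mean level of 8 skeletal muscle markers was 0.74 to 6.41 in T0, -1.18 to 1.51 in vehicle, -0.69 to 5.97 in B20 and -1.13 to 3.02 in nintedanib, with 0 of 8 called. Of 8 endothelial markers, 3 were called lower than in T0 in vehicle, 3 in nintedanib and 6 in B20, and their mean level was -0.06 to 0.98 in T0, -0.72 to -0.33 in vehicle, -1.26 to -0.82 in B20 and -0.89 to -0.21 in nintedanib. Within T0 the adipocyte and muscle levels were higher on replicates 1 and 2 than on replicates 3 and 4. The part of these cells in the differences of Nfe2l2, Gsr, Sod2 and Cat from T0 was not tested.

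By residual spread within groups, the members ranged from the steady to the variable. The SD of the arrays around their group means, pooled over the 4 groups, was 0.15 log2 for Gsr, 0.19 for Nfe2l2 and 0.21 for Gclc. The median over all genes was 0.39. This pooled SD can differ from that of a single group. The pooled SD was 0.24 for Txnrd1, 0.28 for Nqo1, 0.29 for Sod2, 0.30 for Cat, 0.50 for Gclm and 0.69 for Hmox1. A difference of a given size is thus measured most closely in Gsr and least in Hmox1.

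For the 3 members with the lowest p, the genes whose level followed theirs most closely over the 15 arrays are named as a description. They were picked from the 16096 symbols tested. For Nfe2l2 these were Ube2q2 (Pearson's r 0.94), AF067063 (0.91) and Mfn1 (0.89). For Gsr they were Dr1 (0.94), Ebp (0.94) and Ralb (0.93). For Sod2 they were Cox6a1 (0.97), Cox5a (0.96) and Acaa2 (0.95), of which the first pair are subunits of cytochrome c oxidase and the last an enzyme of mitochondrial fatty acid oxidation. With the group means removed, r was 0.88, 0.71 and 0.81 for the Nfe2l2 partners, 0.86, 0.85 and 0.85 for those of Gsr, and 0.96, 0.92 and 0.91 for those of Sod2. These values come from the arrays on which the partners were picked, so high r follows in part from the picking.

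Around the members, 97 other genes of the pathway were listed in 5 groups, and 93 of them were measured. In the 3 comparisons between treated tumours 0 of 93 were called in limma, where 0% of all genes were called. An unadjusted limma p under 0.05 was found for 2 (nintedanib against vehicle), 2 (B20 against vehicle) and 7 (nintedanib against B20). Of all 28025 genes, 1353, 911 and 2630 had such a p in the same order. The lowest p between nintedanib and vehicle in each list were those of Mafg (0.38 ± 0.19), a small MAF partner of NRF2, the glutathione transferase Gstt1 (-0.45 ± 0.27), Txnip (0.55 ± 0.19), the exporter Abcc1 (0.50 ± 0.22) and the oxidase Nox4 (-0.47 ± 0.25). Between B20 and vehicle they were those of Maff (0.54 ± 0.31), Mgst2 (1.04 ± 0.48), Txnip (0.41 ± 0.19), Blvrb (0.42 ± 0.20) and Nox4 (-0.50 ± 0.25). Between nintedanib and B20 they were those of Bach1 (-0.44 ± 0.15), a repressor at antioxidant response elements, the lipid peroxidase Gpx4 (-0.65 ± 0.27), Prdx3 (-0.37 ± 0.14), Abcc1 (0.60 ± 0.21) and Xdh (0.60 ± 0.32). None of these differences was called.

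**Figure D4:**
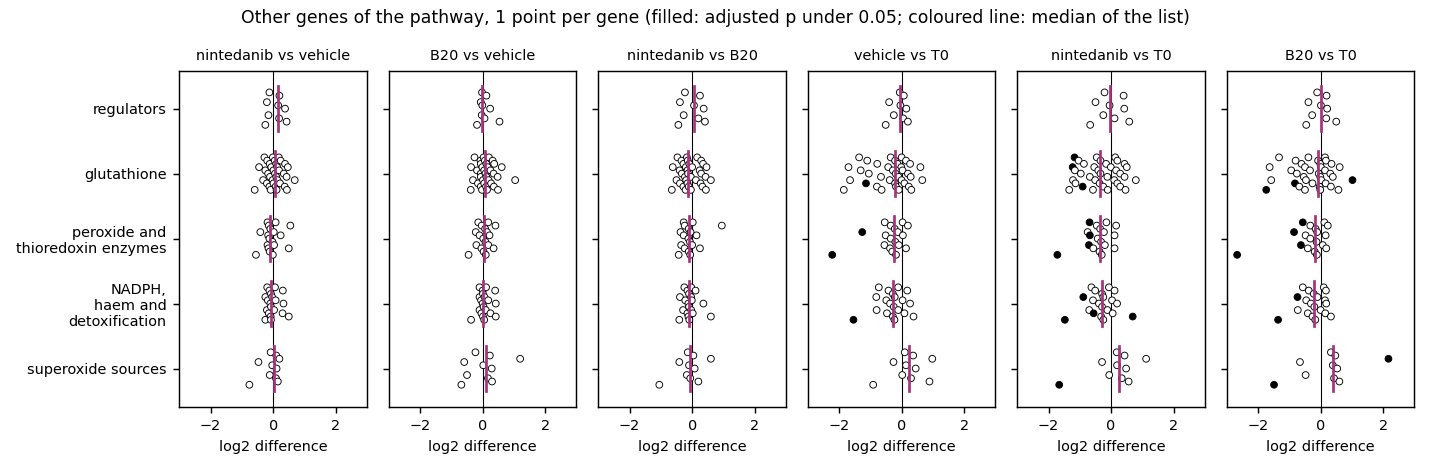
Difference (log2, first group minus second) of the 93 other pathway genes in the 6 comparisons, 1 point per gene, in 5 lists, filled where limma's adjusted p was under 0.05, with a coloured line at the median of each list. No gene is filled in the 3 comparisons between treated tumours, and 4, 12 and 11 are filled against T0 in vehicle, nintedanib and B20.

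Against T0, 4 of 93 pathway genes were called in vehicle, 12 in nintedanib and 11 in B20, shares near those of all genes (4.93%, 11.4% and 9.52%). Of these calls, 4 were lower and 0 higher in vehicle, 11 lower and 1 higher in nintedanib, and 9 lower and 2 higher in B20. Of all genes, 2.13%, 4.62% and 3.73% were called lower, and the rest of the calls were higher; the split of the listed genes was not tested against it. By sign alone, called or not, 60, 62 and 56 of the 93 lay lower in vehicle, nintedanib and B20. Of all genes 46%, 48.9% and 43.6% did, and this was not tested either. Mgst3, Sod3, Txnip and Abcc4 were called lower in all 3 comparisons, which share the T0 arrays. Mgst3, a microsomal glutathione transferase, fell by 1.14 in vehicle, by 0.91 in nintedanib and by 0.82 in B20. Sod3, the extracellular superoxide dismutase, fell by 2.22, by 1.72 and by 2.67 in the same order. Txnip, the thioredoxin-binding protein gene, fell by 1.26, by 0.71 and by 0.85. Abcc4, an exporter of conjugates, fell by 1.54, by 1.48 and by 1.36.

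Of the 36 glutathione genes measured, 3 were called lower in nintedanib against T0: Mgst3, the extracellular glutathione hydrolase Ggt1 (by 1.23) and the transferase Gstz1 (by 1.17). In B20 against T0, Mgst3 and Gstm1 (by 1.74) were called lower and Gstm6 was called higher, by 1.02. The Gstm genes are close paralogs whose probes may share signal. The Gstm6 probe was dim, at -3.67 ± 0.51 (SD) in B20 and lower in T0. On the T0 arrays the lowest level counted as well above background lay between -6.03 and -4.66, so the Gstm6 rise starts near the floor. Of the 18 peroxide and thioredoxin enzymes, 4 were called lower in nintedanib: Sod3, Txnip, the mitochondrial peroxiredoxin Prdx3 (by 0.69) and the mitochondrial thioredoxin reductase Txnrd2 (by 0.68). In B20, Txnrd2 (by 0.63) and Txnrd3 (by 0.57) were called lower with Sod3 and Txnip. Txnrd1, their cytosolic relative, differed from T0 by 0.24 in B20 and was not called.

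The next list held 20 genes for NADPH, haem and detoxification. In nintedanib against T0, Pgd (by 0.56) and Tkt (by 0.89) of the pentose phosphate pathway were called lower with Abcc4. The epoxide hydrolase Ephx1 was called higher there, by 0.69. In B20 against T0, G6pdx, the first enzyme of that pathway, was called lower, by 0.74. Of the 10 superoxide sources, Duox1 was called lower, by 1.66 in nintedanib and by 1.49 in B20. Nox1 was called higher in B20, by 2.17. The 9 regulators had no call against T0 in limma. The regulator with the lowest p was Keap1 in vehicle (-0.40 ± 0.16, adjusted p 0.163) and in B20 (-0.46 ± 0.15, 0.0644), and Nfe2l3 in nintedanib (-0.67 ± 0.21, 0.0554). In vehicle no superoxide source was called, and Nox4 had the lowest p (0.89 ± 0.25, adjusted p 0.0531). Adipocyte and endothelial markers were called lower in the same comparisons, as given above, and their part in these differences was not tested.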

How the data were processed

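RNA of 15 mammary tumour samples was hybridised to 15 Agilent 1-colour arrays (Cy3, design 028005). Per the file headers, background subtraction and spot reading were done in Feature Extraction 10.7.3.1. The spot intensity (processed signal) deposited for each array was used, with the deposited 0 or 1 flags, other values per the file headers, for outlier and well-above-background spots. The log2 values of the authors' deposited table are unlabelled as to their making; they were nearly the values that normexp and quantile normalisation give here, so these 2 alternatives are not independent.

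Control and outlier spots were left out, leaving 55681 probes. Spots of 1 probe were averaged, and 82 probe values with no usable spot were filled with the probe's mean over other arrays, none in a member. Log2 signals were scaled by each array's 75th percentile. A probe counted as well above background on an array where at least 0.5 of its spots did, and was kept with 3 such arrays of 15. The brightest probe per gene was fitted with limma 3.58.1 (R 4.3.3), all 15 arrays sharing 1 spread, and p-values were adjusted over all 28025 genes. The flag rule for probes with several spots was not fixed in advance. After the first results were seen, counting a probe by any of its spots was tried, to come nearer to the gene count of an earlier analysis; the first rule was then kept and the other is an alternative, which changed no member's call. Probes were named through RefSeq (GRCm38.p6).

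Precision is limited by the number of arrays and by signal over background, given with the groups. The highest correlation between 2 arrays was 0.9854, so none was taken for a duplicate. Replicate numbers were not taken to pair samples. The members, lists and markers were chosen with earlier results of these data known. All members are named, and of each pathway list the called genes (at most 4 per comparison) or the 1 with the lowest p. The script was tested on simulated data. Alternatives were other scalings, background corrections, filters, probes, slide and replicate blocks, array weights, fits of 2 groups, and leaving out each array.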

Additional observations from a re-analysis of the deposited data

Results flagged for a closer look

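Gsr in nintedanib replicate 2 was 3.35, apart from the other 3 nintedanib arrays at 3.51 to 3.52. The gap to the nearest array was 0.943 of the group's range, above Dixon's 95% critical value for 4 arrays, in a group whose SD was only 0.08. Chance marks about 1 in 20 groups in this way. The rule was applied to each of the 9 tested members in T0, B20 and nintedanib, and this was the only mark. With that many groups, a mark by chance is likely. Without that array the Gsr difference between nintedanib and T0 was -0.43 (limma adjusted p 0.106).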

How the results depend on the processing

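No called member reversed its sign under any alternative run, and 0 of 9 members were called in the 3 comparisons between treated tumours under every alternative that gives a test. In nintedanib against T0, where 2 members were called, 0 were called with median scaling, 0 in a fit of only the 2 groups, 1 with quantile normalisation, 1 with no filter, 1 with slide as a block, and 5 with array weights; leaving out 1 array gave 1 to 2. In vehicle against T0 (0 called), 1 was called with normexp and quantile normalisation, quantile normalisation, the authors' values, a filter on every array of 1 group, the mean of probes and the dimmer probe. In B20 against T0 (0 called), 1 was called with normexp and quantile normalisation, quantile normalisation, the authors' values, the mean of probes, the dimmer probe and array weights, and leaving out 1 array gave 0 to 1. Nfe2l2 in nintedanib against T0 was called in 26 of 28 alternatives, and not with median scaling (limma adjusted p 0.186) or only the 2 groups (0.06); Gsr was called in 7 of 28. With the replicate block, 1 member was called in nintedanib against T0, Nfe2l2 (-0.71, limma adjusted p 0.0375), against Gsr at 0.0738. The block changed no other call. Of 21 pairs of same-numbered arrays, 4 had an r of deviations over 0.1 (range -0.25 to 0.38). Pairs with different numbers were not computed for comparison. Genes called ranged from 17 to 5274 in vehicle against T0 (1382 as reported), from 1366 to 7919 in nintedanib against T0 (3208) and from 919 to 6059 in B20 against T0 (2668), from 0 to 12 in nintedanib against vehicle and from 0 to 1 in nintedanib against B20 (0 each), the extremes with array weights, only the 2 groups, median scaling or 1 array left out. The cause of these shifts was not tested. The alternatives of normexp on the median signal, the dimmer probe and the any-spot flag were chosen after seeing the data. Slc7a11 has no value because its probe was at background.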
